A study of Mus musculus with 10 samples.

Results

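The 7 genes of cyclic nucleotide phosphodiesterases (Pde3b, Pde2a, Pde4a, Pde4b, Pde4d, Pde7a and Pde8a) and the 3 genes of adenylate cyclases (Adcy6, Adcy7 and Adcy9) were followed through sorted CD4+ T cells. They were taken by symbol, and all 10 were present among the 48321 gene symbols of each count table and passed the filter on low counts. The cells came from spleens of C57BL/6 mice with a GFP reporter of Foxp3, and the sort used GFP, which stands for FoxP3 in the names below, together with CD25. WT mice and mice called KO here, of genotype Satb1 F/F:Thpok-cre, each gave FoxP3+CD25+ and FoxP3-CD25- cells, and KO mice also gave FoxP3+CD25- cells, with 2 libraries in each of 5 groups. FoxP3+CD25+ cells are regulatory T cells (Tregs), and FoxP3-CD25- cells are called non-Tregs. The Cre transgene is driven by Thpok, a gene of helper T cells, so FoxP3-CD25- cells of KO mice were meant to lack Satb1 as well, and the KO non-Tregs are no control with intact Satb1. The labels give no treatment, and neither the age of a mouse nor whether WT mice carried the floxed allele. Same-numbered libraries within a genotype were read as 1 mouse. The sample names point to this without saying so.

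Adenylate cyclases make cyclic AMP (cAMP) from ATP when G proteins activate them, and phosphodiesterases end the signal by hydrolysing it. cAMP acts through protein kinase A (PKA) and through the exchange factors called Epac. In T cells it dampens signals of the antigen receptor, and Tregs are known for a high cAMP content and for repression of Pde3b by FoxP3. PDE3B hydrolyses cAMP and is inhibited by cyclic GMP, PDE2A hydrolyses both nucleotides and is stimulated by cyclic GMP, and the enzymes of the PDE4, PDE7 and PDE8 families are specific for cAMP.

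Related genes could share reads, so the coding sequences were compared first. The 3 PDE4 genes are paralogs. A stretch that holds the longest identical coding run of each pair of them is shown because the 50-base reads had to tell them apart there. Capitals mark the bases at which the 3 genes are not all alike, in 90 coding bases of GENCODE M21 transcripts on GRCm38, 5′ to 3′, numbered from the start codon.
Pde4a, coding bases 730 to 819: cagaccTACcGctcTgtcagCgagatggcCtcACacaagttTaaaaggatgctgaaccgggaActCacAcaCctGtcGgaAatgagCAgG
Pde4b, coding bases 709 to 798: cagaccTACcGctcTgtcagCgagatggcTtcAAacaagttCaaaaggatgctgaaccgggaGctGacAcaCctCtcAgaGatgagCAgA
Pde4d, coding bases 868 to 957: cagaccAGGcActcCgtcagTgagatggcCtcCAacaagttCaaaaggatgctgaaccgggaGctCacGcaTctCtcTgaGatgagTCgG
These bases lie in 2 exons of each gene, between chr9:21194820-21198643, chr4:102570840-102590881 and chr13:109903651-109933918, all on the plus strand. All 3 genes carried the same base at 70 of the 90 positions, and the longest run alike in all was 20 bases. Pde4a and Pde4b differed at 9 positions, Pde4b and Pde4d at 15, and Pde4a and Pde4d at 17. The longest identical coding stretch of any pair of the 10 genes was 32 bases, in Pde4b and Pde4d. The nearest pair of cyclases, Adcy6 and Adcy7, shared at most 23 coding bases, printed here for its length beside a read.
Adcy6, coding bases 1282 to 1304, and Adcy7, coding bases 988 to 1010: gactgttactactgcgtgtcagg
No run of 50 exon bases occurred in more than 1 of the 10 genes. Against all other genes, 62.8% of the 50-base runs of Pde2a also belonged to Gm45837, a gene model on the same strand that covers 64.3% of its exon bases. Counts of Pde2a are therefore uncertain, and those of Gm45837 were not examined. Antisense gene models overlap 8.92% of the exon bases of Adcy6 (Gm29331) and 0.62% of those of Pde7a (Gm16093). Gm29331 had 36 to 150 counts per library, 12.2% to 18.7% of those of Adcy6, and Gm16093 had 15 to 79, 1.99% to 5.42% of those of Pde7a. The strand setting of the counting is not given in the sources used here, so reads over the shared bases of these pairs cannot be told apart.

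Reads assigned to genes numbered 6094952 to 12410064 in a library, 26.0% to 28.5% of all reads. Levels are CPM, counts brought to a common library size with TMM factors, and 3 counts, the floor, were 0.242 to 0.492 CPM before scaling, covering counting error only. Groups were compared with the two-sided quasi-likelihood F-test of edgeR in 1 model of all 10 libraries, with Benjamini-Hochberg adjustment (FDR) over the 13796 genes past the filter. A gene with FDR under 0.05 is called, and log2 fold changes carry their standard error (SE). Satb1, the targeted gene, had (lower and higher library) 379 and 478 CPM in WT Tregs, 534 and 598 in KO Tregs, 818 and 881 in WT non-Tregs, 682 and 841 in KO non-Tregs, then 993 and 1186 in FoxP3+CD25- cells. Gene counts do not resolve exons: the libraries labelled KO lay above WT in Tregs and overlapped with WT in non-Tregs, so these counts did not check the deletion. KO means libraries labelled KO in every direction given below. Foxp3 and Il2ra, the gene of CD25, followed the sort: Foxp3 was at 618 to 739 CPM in Tregs, 318 and 361 in KO FoxP3+CD25- cells and 18.0 to 38.9 in non-Tregs. Il2ra was at 627 to 760 CPM in Tregs, at 16.7 and 16.8 in KO FoxP3+CD25- cells and at 1.55 to 11.4 in non-Tregs. Both WT libraries numbered 1 held 14487 and 16362 Xist counts and 0 counts of chromosome Y genes, and the other 8 held at most 4 and at least 3039, so the WT groups hold both sexes and the KO groups 1. Among summed markers of other cells, those of myeloid cells were at 14.3 to 22.8 CPM, of CD8 T cells at 9.18 to 16.6, of NK cells at 0 to 4.33, of erythroid cells at 0 to 1.98 and of platelets at 0 to 0.134. Most of the myeloid sum was Csf1r (12.4 to 17.6 CPM), Cd14 had at most 1 count, and Itgam was lower in KO Tregs than in KO non-Tregs (log2 fold change -1.75, FDR = 0.0207). Klrb1c, an NK cell marker, was at 1.98 and 3.95 CPM in KO non-Tregs and at no more than 1.55 in the other libraries. The summed B cell markers, mostly Ighm, ranged from 368 to 588 CPM in Treg libraries and from 220 to 320 CPM in the other 6, and Cd79b from 14.4 to 19.1 and from 0.826 to 5.13 CPM. The part of these markers in the differences below was not tested. In bulk samples, fewer cells of a type and less RNA per cell cannot be told apart.

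Pde3b had the widest range of CPM among the 10 genes. It was at 364 and 311 CPM in WT non-Tregs (replicates 1 and 2 throughout), 305 and 239.65 in KO non-Tregs, 461 and 363 in FoxP3+CD25- cells (KO), 95.7 and 64.9 in KO Tregs, and 40.1 and 20.6 in WT Tregs. Every Treg library lay below every other library, both KO Treg libraries lay above both WT Treg libraries, and KO FoxP3+CD25- cells overlapped with WT non-Tregs. Pde3b lies at chr7:114415281-114539251 on the plus strand. In descending order, group means were 412 ± 68.8 CPM (SD, n = 2) for KO FoxP3+CD25- cells, then 337 ± 37.3 in WT non-Tregs, 272 ± 46.3 in KO non-Tregs, 80.3 ± 21.8 in KO Tregs and 30.3 ± 13.8 in WT Tregs. The first and second of these overlapped in their libraries, and the rest did not overlap with their neighbours.

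Adcy7 encodes a transmembrane cyclase (chr8:88272403-88329962, plus strand) and was at 552 and 555 CPM in WT non-Tregs, 535 and 576 in KO non-Tregs, 463 and 479 in KO FoxP3+CD25- libraries, 321 and 350.2 in KO Tregs and 410 and 306 in WT Tregs. The Treg libraries again lay below all others, and those of KO FoxP3+CD25- cells lay between Tregs and non-Tregs. Pde7a (chr3:19223108-19311322, minus strand) was at 153 and 143 CPM in WT non-Tregs, 206 and 185 in KO non-Tregs, 120.3 and 98.4 in KO FoxP3+CD25- libraries, 85.0 and 79.8 in KO Tregs and 96.2 and 77.4 in WT Tregs. Here KO FoxP3+CD25- cells lay below the non-Tregs of both genotypes and above the Tregs of both.

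Adcy6, a cyclase inhibited by calcium (chr15:98589973-98610076, minus strand), was at 67.1 and 94.4 CPM in WT non-Tregs, 108 and 74.6 in KO non-Tregs, 88.7 and 66.0 in KO FoxP3+CD25- libraries, 55.2 and 41.0 in KO Tregs and 24.7 and 44.7 in WT Tregs. Pde4d (chr13:108449948-109953461, plus strand) was at 137 and 140.03 CPM in WT non-Tregs, 138 and 105 in KO non-Tregs, 184 and 147 in KO FoxP3+CD25- libraries, 116 and 89.6 in KO Tregs and 85.1 and 93.6 in WT Tregs. Pde4b (chr4:102087543-102607259, plus strand) was at 166 and 153 CPM in WT non-Tregs, 163 and 141 in KO non-Tregs, 203 and 173 in KO FoxP3+CD25- libraries, 134 and 111 in KO Tregs and 151 and 112 in WT Tregs. For both PDE4 genes the KO FoxP3+CD25- libraries lay above every other library.

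Pde2a (chr7:101421691-101512827, plus strand) was at 148 and 109.8 CPM in WT non-Tregs, 35.7 and 77.6 in KO non-Tregs, 40.9 and 79.8 in KO FoxP3+CD25- libraries, 66.7 and 107 in KO Tregs and 146 and 94.6 in WT Tregs. Its WT non-Treg libraries lay above those of KO non-Tregs and KO FoxP3+CD25- cells, and WT and KO Tregs overlapped. In each KO population the library numbered 1 was lower than that numbered 2, and in both WT populations it was higher. Pde8a (chr7:81213596-81334533, plus strand) was highest in Tregs, at 15.3 and 12.5 CPM in WT non-Tregs, 7.61 and 11.6 in KO non-Tregs, 12.0 and 11.2 in KO FoxP3+CD25- libraries, 19.5 and 15.3 in KO Tregs and 24.7 and 17.7 in WT Tregs.

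The remaining pair was low. Adcy9 (chr16:4287529-4420498, minus strand) had 22 to 71 counts per library and was at 3.23 and 2.27 CPM in WT non-Tregs, 6.12 and 3.82 in KO non-Tregs, 11.5 and 6.13 in KO FoxP3+CD25- libraries, 5.80 and 4.45 in KO Tregs and 4.99 and 3.66 in WT Tregs. Pde4a (chr9:21165714-21213248, plus strand) had 1 to 19 counts per library, and its highest level was 2.90 CPM, in a KO Treg library.

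**Figure D1:**
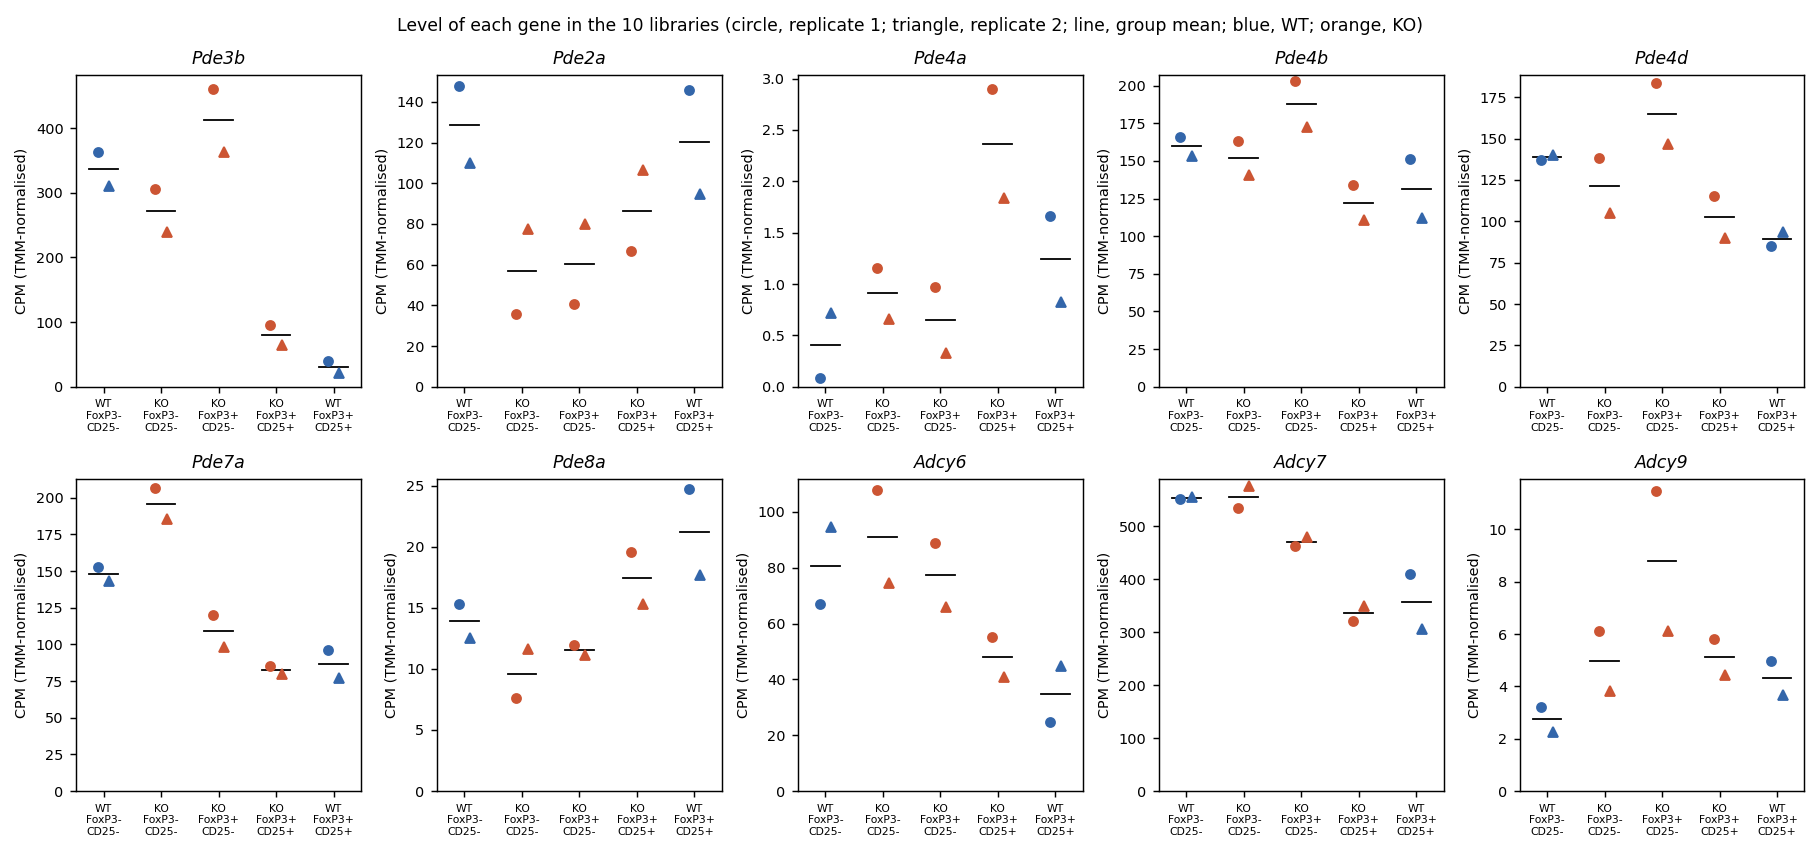
TMM-normalised CPM (vertical axes, from 0, on a scale of their own for each gene) of the 10 genes in each sorted group (horizontal axes). Circles are replicate 1, triangles replicate 2 and lines the mean of both, with WT in blue and KO in orange. Pde3b is at 20.6 to 95.7 CPM in the 4 Treg libraries and at 239.65 to 461 CPM in the other 6.

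To compare levels between genes, CPM was divided by the length of all annotated exons. Adcy7 ranked first of the 10 in every group, at 49.8 ± 3.11 CPM per kb (SD, n = 2) in KO Tregs and 82.5 ± 4.32 CPM per kb in KO non-Tregs. Adcy9 and Pde4a ranked 9 and 10 in every group. Pde3b ranked 2 in both non-Treg groups and in KO FoxP3+CD25- cells, 5 in KO Tregs and 8 in WT Tregs. In WT Tregs its level of 3.32 ± 1.51 CPM per kb overlapped with that of Adcy6 (5.11 ± 2.08), the next above it. In WT non-Tregs, Pde3b at 37.0 ± 4.09 CPM per kb lay clear of Pde2a (21.0 ± 4.38) and Pde7a (19.1 ± 0.911), which overlapped with each other. Gm45837 shares 64.3% of the exon bases of Pde2a. The level of Pde2a per kb is therefore uncertain, and so are ranks and distances beside it. With the length of the longest transcript, Adcy7 also ranked first in every group, and Pde3b ranked 6 in KO Tregs and kept its other ranks.

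Summed per kb of exon, the 7 phosphodiesterase members were at 50.5 to 68.2 CPM per kb in the 4 Treg libraries and at 87.9 to 115 CPM per kb in the other 6. Pde3b made up 4.47% and 6.44% of that sum in WT Tregs, 12.5% and 17.6% in KO Tregs, 29.9% to 35.3% in non-Tregs and 41.1% and 45.8% in KO FoxP3+CD25- cells. By the longest transcript its share was 3.44% to 13.5% in Tregs and 25.1% to 36.3% elsewhere. Without Pde3b the sum was 48.3 to 63.8 CPM per kb in Tregs and 57.0 to 74.8 in the other libraries, so the ranges over both genotypes then overlapped. Within each genotype the Tregs still lay below the non-Tregs. WT cells had 63.8 and 48.3 against 74.8 and 65.7 (replicates 1 and 2), and KO cells 49.3 and 49.6 against 61.4 and 61.6. Adcy7 made up 81.8% to 93.0% of the summed level of the 3 cyclase members, a sum that leaves out other cyclases such as Adcy3. These sums describe RNA, not enzyme activity. The phosphodiesterase sums and the shares of Pde3b include Pde2a, whose level per kb is uncertain.

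**Figure D2:**
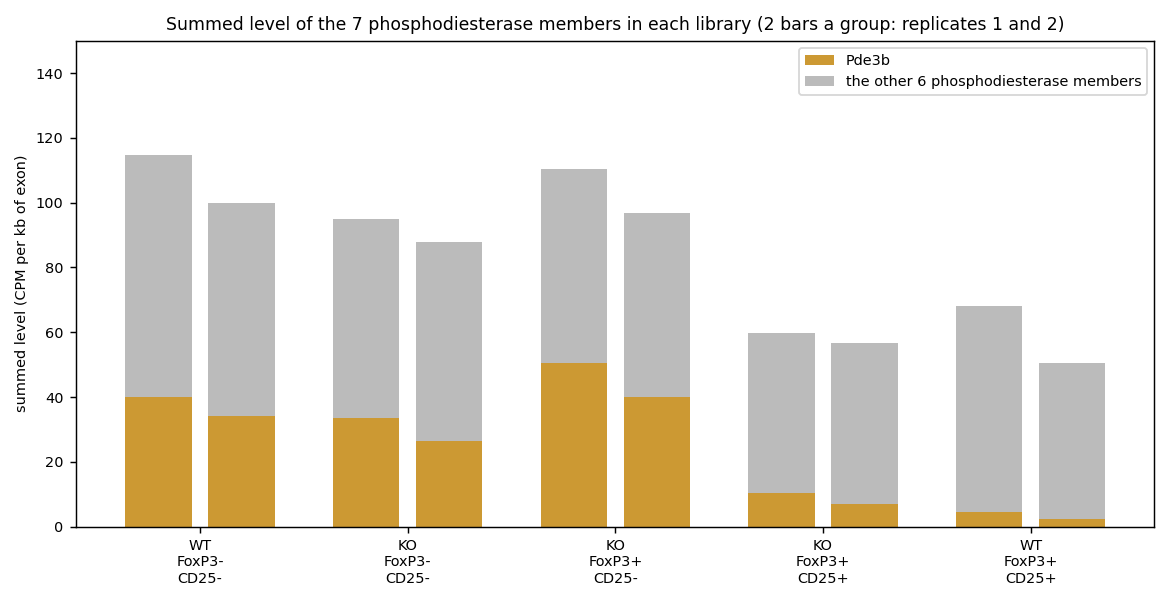
Summed level of the 7 phosphodiesterase members in CPM per kb of exon (vertical axis) for each library, with 2 bars for each group (horizontal axis; replicate 1, then replicate 2). The gold part is Pde3b, which makes up 4.47% to 17.6% in Treg libraries and 29.9% to 45.8% in the others, and the grey part is the other 6 genes.

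WT Tregs were compared with WT non-Tregs for the difference that marks the Treg lineage. Of the 10 genes, 5 were called, all lower in Tregs, where 10.9% of all tested genes were called, 7.15% higher and 3.75% lower. Pde3b fell most, its log2 fold change being -3.48 (SE 0.29, FDR = 4.03e-05), 11.2-fold lower. Adcy6 changed by -1.21 (SE 0.29, FDR = 0.0207), Pde7a by -0.77 (SE 0.14, FDR = 0.00381), Pde4d by -0.63 (SE 0.17, FDR = 0.0319) and Adcy7 by -0.63 (SE 0.13, FDR = 0.011). The median log2 fold change was -0.46 over the 10 genes and -0.02 over all genes. Calls of Pde3b and Pde7a held without any 1 library, and the log2 fold change of Pde3b ran from -4.04 without Treg replicate 1 to -3.07 without Treg replicate 2. Pde4d was not called without either Treg library (FDR 0.167 and 0.0504 without replicates 1 and 2) or either non-Treg library (0.122 and 0.149). Without replicate 1 and 2 of the Tregs its log2 fold change was -0.57 and -0.70. Adcy6 was not called without Treg replicate 1 (-0.85, FDR = 0.147) or non-Treg replicate 2 (-0.95, FDR = 0.171), and stood at -1.71 without Treg replicate 2. Adcy7 was not called without non-Treg replicate 1 (FDR = 0.067) or 2 (FDR = 0.0694). With the mouse as a block, where 2634 rather than 1504 of all genes were called, Pde4b at -0.29 (FDR = 0.0417) and Pde8a at 0.60 (FDR = 0.0474) were called as well. Cd44, a gene of activated and memory cells, was higher in WT Tregs (log2 fold change 0.91, FDR = 0.00994) and Ccr7, a gene of naive cells, lower (-0.81, FDR = 0.0017), and their part in these differences was not tested.

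In KO cells the same comparison gave 3 calls, all lower in Tregs: Pde3b at -1.76 (SE 0.27, FDR = 0.00308), Pde7a at -1.25 (SE 0.14, FDR = 0.000424) and Adcy7 at -0.73 (SE 0.13, FDR = 0.00858). Of all genes, 6.34% were called, 3.52% higher and 2.81% lower. The median was -0.28 over the 10 genes and 0.00 over all genes. Pde4d at -0.25 (SE 0.17, FDR = 0.579) and Adcy6 at -0.92 (SE 0.29, FDR = 0.105) were not called. With the mouse as a block, 7 of the 10 and 1649 rather than 874 of all genes were called: Adcy6 at -0.91 (FDR = 0.000197), Pde2a at 0.66 (FDR = 0.00288), Pde8a at 0.83 (FDR = 0.0337) and Pde4b at -0.31 (FDR = 0.0478) joined the other 3. Adcy7 was not called without KO Treg replicate 1 (FDR = 0.0873) or KO non-Treg replicate 2 (FDR = 0.0693). Without all KO libraries numbered 1, an alternative chosen after seeing the data, Pde3b stayed at -1.88 (FDR = 0.0934), and none of the 10 was called. Cd44 was at -0.37 (FDR = 0.41) and Ccr7 at -0.37 (FDR = 0.135) in this comparison. The comparisons in WT and KO cells used different libraries.

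KO FoxP3+CD25- cells express Foxp3 without CD25, and were set beside both neighbours in the same mice. Against KO Tregs, 3 genes were called, all higher: Pde3b at 2.36 (SE 0.28, FDR = 0.000562), 5.14-fold, Pde4d at 0.69 (SE 0.17, FDR = 0.0309) and Pde4b at 0.62 (SE 0.16, FDR = 0.0421). Of all genes 7.01% were called, 2.25% higher and 4.76% lower, and the median was 0.55 over the 10 genes and 0.00 over all. With the mouse as a block, where 2090 rather than 967 of all genes were called, Adcy6 at 0.69 (FDR = 0.00124), Adcy7 at 0.49 (FDR = 0.00598), Pde7a at 0.40 (FDR = 0.0134) and Pde2a at -0.55 (FDR = 0.00724) were called too, 7 in all. Pde3b was called whichever library was left out. Pde4b was not called without KO Treg replicate 1 (FDR = 0.0776) or 2 (0.274) or without FoxP3+CD25- replicate 1 (0.238) or 2 (0.0784). Pde4d was not called without FoxP3+CD25- replicate 1 (FDR = 0.22) or KO Treg replicate 2 (FDR = 0.24). Against KO non-Tregs, 1 gene was called, Pde7a, lower by -0.84 (SE 0.14, FDR = 0.0116) where 1.67% of all genes were called, 0.319% higher and 1.35% lower. That call was not made without KO non-Treg replicate 1 (FDR = 0.0756) or 2 (0.0533) or without FoxP3+CD25- replicate 2 (0.153). The mouse block, with 786 rather than 230 of all genes called, added Pde3b at 0.60 (FDR = 0.0196) and Pde4d at 0.45 (FDR = 0.00735), both higher in FoxP3+CD25- cells. The median was 0.17 over the 10 genes and 0.01 over all. Cd44, in order of level, was at 16.1 and 17.9 CPM in KO FoxP3+CD25- libraries against 148 and 157 in KO non-Tregs (log2 fold change -3.17, FDR = 0.00016) and 112 and 124 in KO Tregs (log2 fold change -2.80, FDR = 6.29e-05). These cells thus carried little RNA of an activation gene, and its part in the differences of the 10 genes was not tested.

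**Figure D3:**
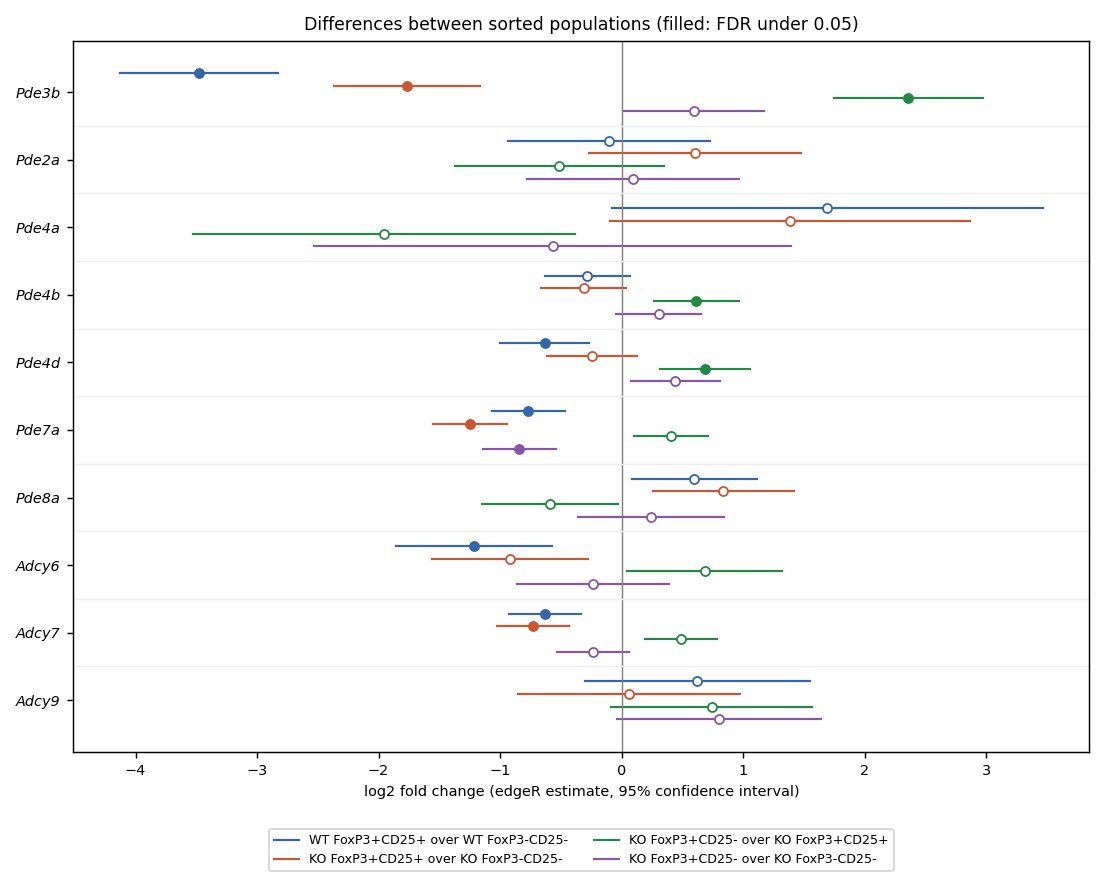
Log2 fold changes (horizontal axis) of the 10 genes (vertical axis) between sorted populations of a genotype, with 95% confidence intervals from edgeR. Filled points have FDR under 0.05. For Pde3b the estimate is -3.48 in WT Tregs over non-Tregs, -1.76 in KO Tregs over non-Tregs, and 2.36 in KO FoxP3+CD25- cells over KO Tregs.

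KO FoxP3+CD25- cells were also compared with cells of WT mice. Against WT Tregs, 4 genes were called: Pde3b at 3.77 (SE 0.30, FDR = 4.23e-05), Adcy6 at 1.15 (SE 0.29, FDR = 0.029) and Pde4d at 0.88 (SE 0.17, FDR = 0.00567) were higher, and Pde8a at -0.88 (SE 0.25, FDR = 0.0447) was lower. Of all genes 11.2% were called, 3.88% higher and 7.34% lower, and the median was 0.46 over the 10 genes and 0.02 over all. Pde3b was called whichever library was left out. Pde4d was not called without FoxP3+CD25- replicate 1 (FDR = 0.0512), Adcy6 not without that library (0.166) or WT Treg replicate 1 (0.168), and Pde8a not without FoxP3+CD25- replicate 1 (0.14) or 2 (0.216) or WT Treg replicate 1 (0.227). Without WT Treg replicate 1, Pde4b at 0.74 (FDR = 0.0211) and Adcy7 at 0.62 (FDR = 0.00977) were called. Against WT non-Tregs the quasi-likelihood test called none of the 10 and 0.768% of all genes. Of the 10, 3 had an unadjusted p under 0.05, as had 8.80% of all genes. Adcy9 came nearest, at 1.61 (SE 0.38, FDR = 0.119). DESeq2, the likelihood ratio test and the exact test each called 1 of the 10, Adcy9 (FDR = 0.0324, 0.00718 and 0.00861). Of all genes they called 217, 306 and 284. The fold change of Adcy9 rests on 22 to 71 counts per library. Pde3b differed by 0.29 with a 95% confidence interval of -0.28 to 0.86, which holds both a fall and a rise. Here too Cd44 was lower (log2 fold change -2.45, FDR = 0.000922), and its part was not tested.

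KO and WT cells of the same population were compared for the effect of the genotype. In Tregs the quasi-likelihood test called 0.00725% of all genes, 1 gene, and none of the 10. Of the 10, 1 gene, Pde3b, had an unadjusted p under 0.05, as had 4.29% of all genes. Pde3b was 2.65-fold higher in KO Tregs, with a log2 value of 1.41 (SE 0.29, FDR = 0.922) and a 95% confidence interval of 0.78 to 2.04, and both KO libraries lay above both WT libraries. It ranked 7 by p among 13796 genes. It was called by the likelihood ratio test (FDR = 0.00723), the exact test (FDR = 0.00804), without a filter on low counts (FDR = 0.0191) and with the replicate number as a block (FDR = 0.0155), and not by DESeq2 (FDR = 0.287). Its log2 fold change was 1.96 without WT Treg replicate 1, the library with Xist counts, and ran from there down to 0.999 without WT Treg replicate 2. The other 9 genes ranged from -0.47 for Pde2a to 0.91 for Pde4a, the latter with a 95% confidence interval of -0.41 to 2.24. Adcy7 at -0.09 (95% confidence interval -0.39 to 0.20) and Pde7a at -0.07 (-0.38 to 0.23) had the narrowest intervals.

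In non-Tregs the quasi-likelihood test called 0.145% of all genes and again none of the 10. It gave an unadjusted p under 0.05 for 2 of the 10 and 8.02% of all genes. DESeq2, the likelihood ratio test and the exact test called 111, 143 and 131 of all genes, and also none of the 10. Pde2a had -1.18 (SE 0.39, FDR = 0.415) on the log2 scale, with both KO libraries below both WT libraries. That value was -0.72 without KO non-Treg replicate 1 and -1.85 without replicate 2. Pde7a had 0.40 (SE 0.13, FDR = 0.414), with both KO libraries above both WT libraries. Pde3b was at -0.31 (SE 0.26, FDR = 0.898). Adcy7 was at 0.01, with a 95% confidence interval of -0.29 to 0.30.

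The difference between the effects of the genotype in Tregs and in non-Tregs was tested as an interaction. The quasi-likelihood test called none of the 10 and 0% of all genes. It gave an unadjusted p under 0.05 for 2 of the 10 and 4.97% of all genes. DESeq2 called none of the 10 and 25 of all genes. For Pde3b the difference was 1.72 (SE 0.39, 95% confidence interval 0.86 to 2.57, FDR = 0.52). The likelihood ratio test called it (FDR = 0.0252), with 32 of all genes called. With the mouse as a block, where 148 of all genes were called, it was 1.75 (FDR = 0.00391), and Pde2a was called as well at 0.77 (FDR = 0.0458). Within a mouse, log2 CPM of Pde3b was lower in Tregs than in non-Tregs by -3.17 and -3.90 in the WT mice and by -1.67 and -1.88 in the KO mice. The fall was thus larger in each WT mouse than in either KO mouse. For Pde2a the same values were -0.02 and -0.21 in the WT mice and 0.90 and 0.46 in the KO mice. Those of the WT mice were close to 0, and the contrast in WT cells was not called (-0.10, SE 0.38, FDR = 0.921). Pde7a gave -0.67 and -0.88 in the WT mice and -1.28 and -1.21 in the KO mice, and its interaction of -0.48 (SE 0.19, FDR = 0.952) was not called. In the same test Cd44 had -1.28 (FDR = 0.476) and Ccr7 0.44 (FDR = 0.952), with an unadjusted p of 0.000653 and 0.0314, and their part in the values of the 10 genes was not tested.

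**Figure D4:**
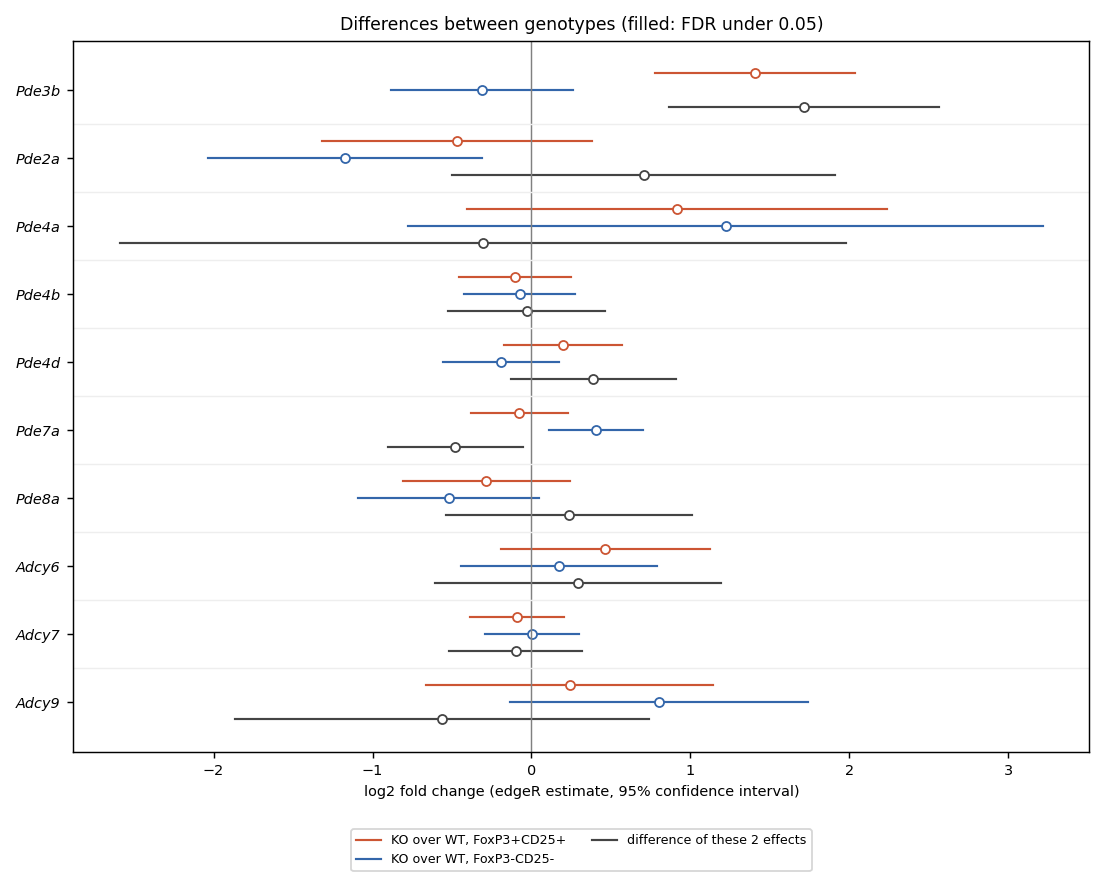
Log2 fold changes (horizontal axis) of the 10 genes (vertical axis) between KO and WT cells, in Tregs and in non-Tregs, and the difference of these effects, with 95% confidence intervals from edgeR. No point is filled, since none has FDR under 0.05. Pde3b stands at 1.41 in Tregs, -0.31 in non-Tregs and 1.72 for the difference.

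**Figure D5:**
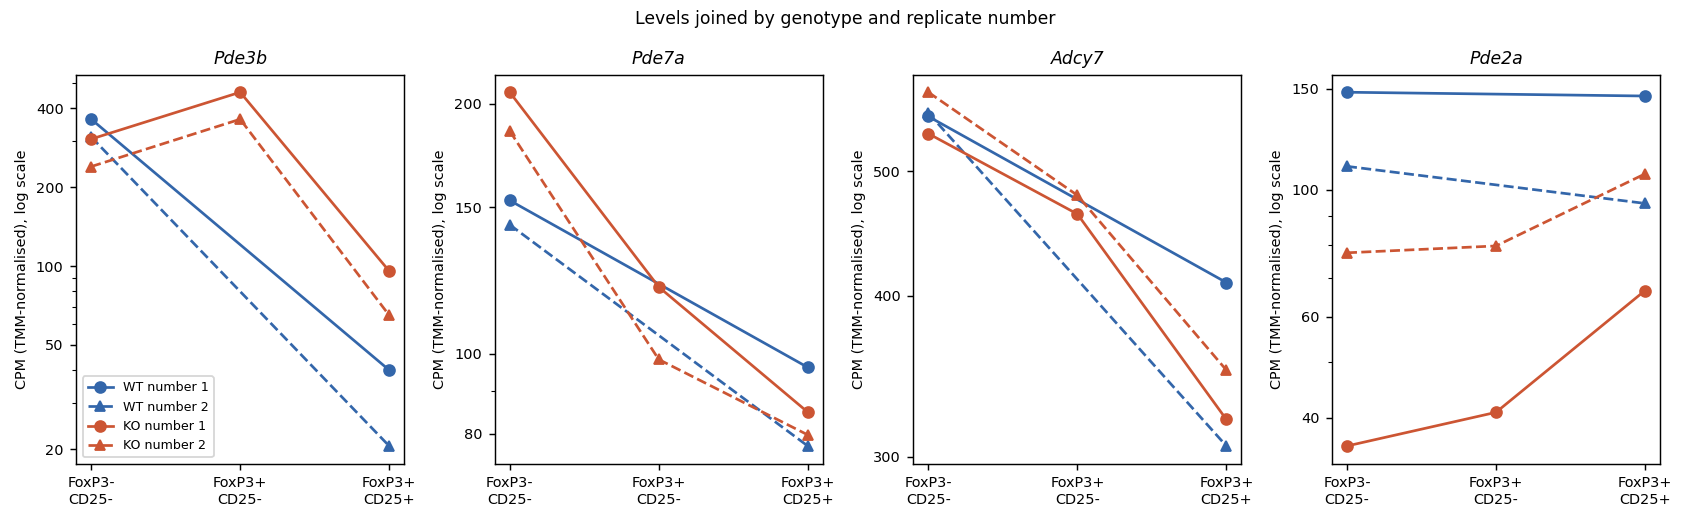
CPM on a log axis (vertical) of Pde3b, Pde7a, Adcy7 and Pde2a across sorted populations (horizontal), with lines joining libraries of a genotype and number, WT in blue and KO in orange. The WT lines skip FoxP3+CD25- cells, which were sorted from KO mice. From FoxP3-CD25- to FoxP3+CD25+ cells, Pde2a differs by log2 0.90 and 0.46 along the KO lines and by log2 -0.02 and -0.21 along the WT lines.

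Other enzymes of the same families were mostly low. Of 24 further phosphodiesterase and cyclase genes, 10 passed the filter. Among these, Pde6h was at 124 to 207 CPM over all libraries, Adcy3 at 56.3 to 76.9 and Pde1b at 24.0 to 42.9. Adcy3 was not called in Tregs over non-Tregs, with log2 fold changes of 0.24 (FDR = 0.312) in WT and 0.13 (FDR = 0.729) in KO cells. Pde5a, whose enzyme is specific for cyclic GMP, was at (lower, then higher library) 25.4 and 27.3 CPM in WT non-Tregs, 12.1 and 13.04 in KO non-Tregs, 17.0 and 18.8 in KO FoxP3+CD25- libraries, 1.83 and 2.59 in KO Tregs and 2.01 and 3.71 in WT Tregs. Its Treg libraries lay below all others. Its log2 fold change was -3.21 (FDR = 2.95e-05) in WT Tregs over non-Tregs, -2.51 (FDR = 0.000676) in KO Tregs over non-Tregs, 3.03 (FDR = 0.000173) in KO FoxP3+CD25- cells over KO Tregs and 2.66 (FDR = 0.000131) over WT Tregs. Pde7b, the paralog of Pde7a, was called higher in Tregs over non-Tregs of both genotypes (FDR = 0.0331 in WT and 0.0364 in KO). It was at 0.473 and 2.43 CPM in WT Tregs and 1.44 and 2.14 in KO Tregs, and at no more than 0.206 CPM in non-Tregs, under the level of 3 counts, so no fold is given. Pde7b passed the filter only through Treg libraries, where it was high, so its calls are not read as support. Thus 2 of these 10, Pde5a and Pde7b, were called in each contrast of Tregs with non-Tregs, where 10.9% (WT) and 6.34% (KO) of all genes were. Of the 2, Pde7b is among the 10 only by its level in Tregs. In the contrasts of KO FoxP3+CD25- cells with KO and with WT Tregs 1 of 10 was called (7.01% and 11.2% of all genes). The quasi-likelihood test called no other of these 10 in any of the 9 comparisons.

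Of 40 genes of PKA subunits and inhibitors, Epac, A-kinase anchors, CREB factors, G proteins and cAMP export, 30 passed the filter. In WT Tregs over non-Tregs, 1 was called higher and 1 lower, 2 of 30 where 10.9% of all genes were called. Rapgef4, the gene of Epac2, fell by -1.98 (FDR = 0.00119), and Akap7, an anchor of PKA, rose by 1.66 (FDR = 0.0166). Antisense gene models overlap 5.05% of the exon bases of Rapgef4 (Rapgef4os2) and 1.07% of those of Akap7 (Gm40617). In KO Tregs over non-Tregs 2 of 30 were called, close to the 6.34% of all genes, and both were lower: Rapgef4 at -1.51 (FDR = 0.0131) and the anchor gene Akap12 at -0.71 (FDR = 0.0252). Rapgef4 was at 49.4 and 72.8 CPM in WT non-Tregs, 31.6 and 51.8 in KO non-Tregs, 39.3 and 53.6 in KO FoxP3+CD25- libraries, 11.4 and 17.8 in KO Tregs and 14.4 and 16.5 in WT Tregs, again in order of level, with no Treg library above 17.8. Among KO cells without CD25 but with FoxP3 it was higher than in KO Tregs (1.66, FDR = 0.00634) and in WT Tregs (1.60, FDR = 0.00496). Against WT Tregs, Crtc3, a coactivator of CREB, was also higher (0.51, FDR = 0.0488), and Akap13 (-0.48, FDR = 0.0163) and Abcc4 (-0.45, FDR = 0.0314), whose product exports cAMP, were lower. These made 1 of 30 over KO Tregs and 4 of 30 over WT Tregs, beside 7.01% and 11.2% of all genes. In the other 5 comparisons the quasi-likelihood test called none of the 30, and other tests were not run on this list.

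Across the 10 libraries, the genes whose log2 CPM was most like that of Pde3b by Pearson's r, of 10769 ranked, were Gm43352 (0.98), Trav14n-3 (0.98), Fam102a (0.98), Gpr132 (0.97) and Pydc3 (0.97). The most opposite were Ncoa7 (-0.98), Fbxw9 (-0.97), Fermt3 (-0.97), Cst7 (-0.96) and Socs5 (-0.96). Among the 10 genes themselves, Pde4d (r = 0.87), Adcy6 (0.82), Adcy7 (0.82) and Pde4b (0.80) came nearest to Pde3b, and Pde8a was opposite (-0.72). Adcy7 and Pde7a had r = 0.89. These values describe 10 libraries in 5 groups that share the split between Tregs and the rest.

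For promoters, windows of 250 bases before the start were taken from RefSeq (GRCm38.p6), which held 18 windows for 7 of the 10 genes and none for Pde3b, Pde7a or Adcy6. Windows with a match are printed for Pde4d and Pde8a, which have 1 window each, and for Adcy7, whose other 2 windows held no match. They were chosen as examples after the matches were seen. Pde4b had 4 windows, 2 of them with a match, which are not printed. Also not printed are the 1 window of Adcy9 and 1 window of Pde4a. They held a match from base -24 and from base -50. Capitals mark matches on either strand to TGACG, the core of the cAMP response element, or to the forkhead motif TGTTTAT. No match shared a base with another.
Pde4d, chr13:108653927-108654176, plus strand: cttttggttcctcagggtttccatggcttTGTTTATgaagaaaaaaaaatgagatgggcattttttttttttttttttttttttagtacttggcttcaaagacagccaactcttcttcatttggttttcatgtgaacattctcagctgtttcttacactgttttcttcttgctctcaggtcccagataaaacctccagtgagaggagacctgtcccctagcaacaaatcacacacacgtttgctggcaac
Pde8a, chr7:81213015-81213264, plus strand: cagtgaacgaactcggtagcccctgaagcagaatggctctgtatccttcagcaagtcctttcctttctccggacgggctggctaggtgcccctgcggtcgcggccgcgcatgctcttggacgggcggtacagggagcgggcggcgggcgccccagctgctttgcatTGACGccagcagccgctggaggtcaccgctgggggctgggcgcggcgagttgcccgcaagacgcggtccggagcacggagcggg
Adcy7, chr8:88282742-88282991, plus strand: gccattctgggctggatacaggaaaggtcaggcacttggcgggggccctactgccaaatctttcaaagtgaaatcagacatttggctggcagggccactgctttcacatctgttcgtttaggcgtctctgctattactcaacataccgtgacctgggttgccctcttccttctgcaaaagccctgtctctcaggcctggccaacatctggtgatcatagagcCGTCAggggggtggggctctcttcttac
Pde4d held TGTTTAT from base -221, Pde8a held TGACG from base -84, and Adcy7 held its reverse complement from base -28, counted from the start. TGACG was in 5 of the 18 windows and in 17.8% of 32851 windows of that length, and TGTTTAT was in 2 of 18 and in 4.16% of all. The other forkhead form, TGTTTAC, was in none of the 18 windows and in 3.17% of all. A match describes letters, not binding.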

How the data were processed

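Total RNA of sorted spleen CD4+ T cells was made into libraries with a NEBNext Ultra kit, and 50-base reads were sequenced. Alignment by the authors was to mm10. The submitters' processing notes name HISAT2 (version 2.1.0) for it and HTSeq (version 0.11.1) for counting by gene symbol. The deposited values are counts of reads, not normalized, and the authors name edgeR for their own comparisons. HTSeq tallies of unassigned reads were kept out of library sizes. No feature took 34.4% to 42.5% of all reads, ambiguous reads 0.409% to 0.466%, reads placed at several sites 24.9% to 31.7% and unaligned reads 3.57% to 10.5%. Groups were taken from the labels.

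Here edgeR (version 4.0.16, R version 4.3.3) was run with filterByExpr (minimum count 10), TMM factors, a mean per group over 10 libraries (5 residual degrees of freedom, common biological coefficient of variation 0.147) and a quasi-likelihood F-test, adjusted by Benjamini-Hochberg. SE is the size of the log2 fold change divided by the root of F. An exact test of 2 libraries against 2 by permutation could not reach the threshold, and none was used. The labels do not state that replicates are separate mice, so p-values measure only the spread between these libraries, and intervals on counts cover counting error only. Alternatives were RLE factors, 2 other filters, DESeq2 (version 1.42.0), legacy quasi-likelihood, likelihood ratio and exact tests, fits of the compared libraries, a replicate number block or a mouse block, and libraries left out. The block for the mouse was printed where it changed a call, because within a genotype the deviations of libraries with the same number correlated at 0.303 to 0.445 over 13796 genes, against 0.0415 to 0.114 between genotypes. The steps were tested on simulated data.

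All 10 genes were described. From the other lists, genes called in a comparison were named, at most 4 a list by lowest p, and from the likeness to Pde3b (log2 CPM, prior count 2, genes with a mean of at least 2) 5 at each end. The genes and lists were chosen with earlier results of these data known. Exon lengths and overlaps came from GENCODE M21 on GRCm38. Python (version 3.11.15), numpy (version 2.4.6), pandas (version 2.3.3) and matplotlib (version 3.10.9) were used.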

Additional observations from a re-analysis of the deposited data

Results flagged for a closer look

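The contrast of Tregs with non-Tregs differed between genotypes for a pair of genes when the mouse was a block in edgeR, and for neither in the quasi-likelihood test without a block. For Pde3b, KO minus WT was 1.75 on the log2 scale with the block (FDR = 0.00391) and 1.72 without it (FDR = 0.52), with FDR = 0.0252 in the likelihood ratio test, 0.027 without a filter and 0.0439 with the replicate number as a block, and the gene was lower in Tregs in all 4 mice. For Pde2a it was 0.77 with the block (FDR = 0.0458) and 0.71 without it (FDR = 1), and the values were 0.90 and 0.46 in the KO mice and -0.02 and -0.21, close to 0, in the WT mice. Reads of Pde2a cannot be told apart from those of Gm45837 over 64.3% of its exon bases. Groups of 2 libraries are too small for a test of outlying samples.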

How the results depend on the processing

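No called or near-threshold fold change of the 10 genes turned its sign under any alternative. Of 672 alternative values in 44 pairs of gene and comparison with a p under 0.05 or a call in some setting, 577 stayed on their side of the threshold, 41 lost a call, 54 gained one and 0 reversed. RLE factors, CPM above 1 in at least 2 libraries and the legacy method left the number of the 10 genes called in each comparison as it was. RLE factors moved the median of all genes by at most 0.01. In WT Tregs over non-Tregs 5 genes were called, 2 to 4 without 1 library, and 3 without both WT libraries numbered 1. In KO Tregs over non-Tregs the 3 calls became 4 by DESeq2, without a filter or in a fit of the compared libraries (with Adcy6), 5 by the likelihood ratio or exact test, 7 with the mouse block and 0 without all KO libraries numbered 1, and were 2 to 3 without 1 library. In KO FoxP3+CD25- cells over KO non-Tregs the 1 call became 2 with the replicate block by number, 3 by mouse, 0 without the KO libraries numbered 1 and 0 to 1 without 1 library. Over KO Tregs the 3 calls became 4 in the likelihood ratio and exact tests, DESeq2, no filter and the compared libraries (with Adcy7), 5 by number, 7 by mouse, 1 without those libraries and 1 to 2 without 1 library. Over WT Tregs the 4 calls became 5 in the likelihood ratio and exact tests and DESeq2 (with Pde4b), 6 without a filter (with Pde4b and Adcy7), 7 with the replicate block by number, 2 in a fit of the compared libraries or without the KO libraries numbered 1, and 1 to 4 without 1 library. Over WT non-Tregs, where none was called, the likelihood ratio test, the exact test, DESeq2 and no filter gave 1, and the replicate block by number gave 2. In KO over WT Tregs the likelihood ratio and exact tests, no filter and the block by number gave 1, Pde3b. For the difference of these effects the likelihood ratio test, no filter and the block by number gave 1, and the mouse block 2. The cause of these changes was not tested. Where 1 library is left out, the lone library is taken to vary like the other groups. Leaving out all libraries of a number was added after seeing the data.

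The number called among all genes also moved. The ranges given here leave out the mouse block and the fits without libraries, some of which gave numbers outside them. In KO over WT Tregs the number was 1, and 0 in a fit of the compared libraries to 11 by the likelihood ratio test. In KO over WT non-Tregs it was 20, and 19 (RLE factors, legacy method) to 143 (likelihood ratio). For KO FoxP3+CD25- cells over KO non-Tregs it was 230, and 228 (RLE factors) to 514 (likelihood ratio). Over WT non-Tregs it was 106, and 98 (RLE factors, legacy method) to 306 (likelihood ratio). Over WT Tregs it was 1548, and 913 (compared libraries) to 2154 (replicate block by number). For the difference of effects it was 0, and 0 (RLE factors) to 32 (likelihood ratio). The likeness to Pde3b was unstable: by Spearman's rho 2 of the 10 named genes were again among the 10, and without both WT libraries numbered 1, 4. Depth limits Pde4a (1 to 19 counts) and Adcy9 (22 to 71 counts), and 2 libraries a group limit every comparison.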
